A study of Rattus norvegicus with 18 samples.

Results

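Perm1, the coactivators PGC-1α and PGC-1β (Ppargc1a and Ppargc1b), the estrogen-related receptors and 3 associated factors (Tfam, Nrf1 and Klf15) were followed in cultured neonatal rat heart cells given stem cell conditioned or unconditioned medium. Every probe whose platform symbol equals one of these 9 genes was taken. The larger of 2 array designs named 12198 genes and the smaller one 6455, and 7 of the 9 were among them, with 10 of the 33849 probes on the larger and 3 of the 9906 probes on the smaller design. All 10 and all 3 passed the filter on low intensity. Esrrb and Esrrg were named by no probe of either design and are not analysed here. The genes were selected on results of these data, and the record of that choice names both designs, the 5 groups and no single contrast. The p-values below are therefore those of the fit over all probes, given to place each probe against the threshold, and none of them is independent evidence for the pattern that led to the choice.

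Cardiomyocytes, the beating muscle cells of the heart, were obtained from the pooled ventricles of day 1 rats (n = 24), purified on Percoll gradients and kept for 24 h in cardiac medium. The 18 samples comprised time zero (6 samples, taken at the end of that period) and 4 groups of 3 samples whose medium had been diluted to 50% with stem cell conditioned or with unconditioned hESC medium (the medium of human embryonic stem cells) and which were extracted 24 h or 48 h later. Serum was matched between the media at 5% FBS and 10% HS, and no genetic change or further agent is given. The larger design held 4 time zero arrays and 2 of each other group, and the smaller design held 2 and 1. The series title gives the question, whether factors secreted by stem cells make cardiomyocytes proliferate. The labels name no separate cell preparations, so the p-values rest on differences among arrays that may be no more than technical.

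PGC-1α and PGC-1β are coactivators that bind no DNA themselves and raise transcription through partner factors, among them the estrogen-related receptors and nuclear respiratory factor 1. In heart and skeletal muscle these partners drive genes of fatty acid oxidation, the citric acid cycle and the respiratory chain, and Tfam, which packages and transcribes mitochondrial DNA. Perm1 is a muscle protein induced by PGC-1 and the estrogen-related receptors and feeds back on the same mitochondrial program. Klf15 is a zinc finger transcription factor of adult heart, skeletal muscle and liver, induced by glucocorticoids, that acts in lipid and amino acid metabolism.

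Promoter sequences are shown for the 3 genes with a call below, Perm1, Klf15 and Esrra, and for Ppargc1a, the coactivator with the most probes. Each runs from 250 bases before to 50 bases after the transcription start in RefSeq (rat build GRCr8), where all 9 genes had an entry. Capitals mark matches to 6 motifs searched on both strands. The estrogen-related receptor core half-site AAGGTCA occurred in 4.61% of 33469 rat promoters of this length, the E-box CACGTG in 6.42% and the cAMP response element TGACGTCA in 1.83%.
Perm1, chr5:172081999-172082298, plus strand: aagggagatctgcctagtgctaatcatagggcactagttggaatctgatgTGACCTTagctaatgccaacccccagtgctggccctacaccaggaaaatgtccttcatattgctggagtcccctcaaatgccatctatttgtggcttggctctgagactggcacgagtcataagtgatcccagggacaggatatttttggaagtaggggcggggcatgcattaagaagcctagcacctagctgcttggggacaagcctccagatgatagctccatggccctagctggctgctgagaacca
Klf15, chr4:124522765-124523064, plus strand: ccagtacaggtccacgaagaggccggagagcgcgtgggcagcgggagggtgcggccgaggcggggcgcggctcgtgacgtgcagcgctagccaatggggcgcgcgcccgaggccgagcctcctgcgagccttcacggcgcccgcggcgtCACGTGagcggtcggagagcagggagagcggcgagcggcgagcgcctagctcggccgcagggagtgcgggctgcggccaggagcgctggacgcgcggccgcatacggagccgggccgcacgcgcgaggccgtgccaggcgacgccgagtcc
Esrra, chr1:213543256-213543555, minus strand: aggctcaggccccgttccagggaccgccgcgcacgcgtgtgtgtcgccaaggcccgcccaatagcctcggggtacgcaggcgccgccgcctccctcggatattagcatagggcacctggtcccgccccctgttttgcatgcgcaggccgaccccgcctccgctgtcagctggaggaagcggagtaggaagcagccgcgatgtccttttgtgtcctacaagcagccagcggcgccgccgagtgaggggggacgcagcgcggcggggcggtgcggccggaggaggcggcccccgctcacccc
Ppargc1a, chr14:63634058-63634357, plus strand: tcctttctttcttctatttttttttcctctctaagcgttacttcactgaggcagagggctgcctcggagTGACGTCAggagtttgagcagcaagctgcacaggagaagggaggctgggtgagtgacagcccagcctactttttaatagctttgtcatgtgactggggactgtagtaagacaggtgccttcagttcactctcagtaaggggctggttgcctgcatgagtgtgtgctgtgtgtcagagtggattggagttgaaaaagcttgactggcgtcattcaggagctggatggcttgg
Perm1 carried the half-site on its minus strand, read as TGACCTT on the strand shown, with its first base at -200 from the start. Klf15 carried the E-box at -101 and Ppargc1a the cAMP response element at -181. The Esrra window held none of the 6 motifs. The longer estrogen-related receptor element TNAAGGTCA (1.2% of promoters), which contains the half-site, the palindromic glucocorticoid response element (0.439%) and the nuclear respiratory factor 1 site (4.25%) were found in none of the 9 genes. A match describes letters in this window and was not tested as a binding site.

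Intensities below are linear values after each array was scaled to a common median, and values under 4.78 on the larger design were set to that floor before taking log2. Each log2 change, with its SE, has the median over all probes in that comparison taken off, while its adjusted p tests the change as it was before. That median was 0.01 to 0.19 in the 8 comparisons of the larger design. On the smaller design, where changes have no SE or test, it ran from -0.38 to 0.08. Between media it was -0.29 at 24 h and -0.38 at 48 h there, so those changes differ from the plain ratio of the intensities. A probe was called at a Benjamini-Hochberg adjusted p under 0.05 over the 23694 probes of the limma fit. Of the 12 arrays 3 stand apart (replicate 2 of unconditioned 48 h, replicates 4 and 5 of time zero), with an interquartile ratio of 22.4 to 25.7, against 38.7 to 47.8 on the other 9. Cardiomyocyte markers, of which 11 of 13 had a probe, all had a median over the 12 arrays above the floor, with summed intensities of 102943 to 209716 at time zero, 138950 to 155322 in conditioned and 205221 to 212349 in unconditioned medium at 24 h, and 146904 to 152092 in conditioned and 111728 to 164688 in unconditioned medium at 48 h. Of 6 skeletal muscle markers, Myh1, Myh4, Actn3 and Myod1 had a median at the floor, as did the leukocyte markers Ptprc and Lyz2, the fibroblast markers Pdgfra and Lum and the pericyte marker Rgs5. Summed fibroblast markers (9 of 10 with a probe) were 2468 to 4381 at time zero, 4349 to 5842 in conditioned and 5153 to 6047 in unconditioned medium at 24 h, and 5579 to 6336 in conditioned and 6367 to 11047 in unconditioned medium at 48 h. Summed smooth muscle and pericyte markers (8 of 8) were 21370 to 37494 at time zero and 36853 to 60058 in the other groups, and summed endothelial markers (8 of 10) were 1203 to 1798 at time zero and 1837 to 3723 in the other groups. Summed leukocyte markers (10 of 10) were 1054 to 2096 over all arrays, and Alas2, the erythroid marker with a probe, had a median at the floor. In these bulk samples fewer cells of a type and less RNA per cell cannot be told apart.

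Perm1 (probe 52051) was the member with the lowest levels in conditioned medium relative to time zero. Its intensity was 627, 1034, 391 and 732 in time zero replicates 3 to 6, 46.5 and 34.7 in conditioned and 243 and 229 in unconditioned medium at 24 h, and 56.9 and 55.7 in conditioned and 165 and 107 in unconditioned medium at 48 h. The ranges of the 5 groups did not overlap, and in falling order they were time zero, unconditioned 24 h, unconditioned 48 h, conditioned 48 h and conditioned 24 h. The conditioned mean was 17.2% of the unconditioned mean at 24 h and 41.4% at 48 h. Over both times Perm1 fell in conditioned relative to unconditioned medium, by -1.98 ± 0.30 (limma adjusted p = 0.0031, 4 arrays against 4). It was 1 of 10 member probes called lower in that comparison, in which 0.291% of all probes were called lower, and no member was called higher (0.629% of all probes). The change was lower in every one of 12 fits that each left out 1 array, between -2.25 and -1.72, with adjusted p up to 0.028.

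At 24 h Perm1 fell by -2.56 ± 0.43 in conditioned relative to unconditioned medium (adjusted p = 0.013), and together with Klf15 it made 2 of 10 member probes called lower, against 0.118% of all probes. This call was lost with no filter on level (-2.55, adjusted p = 0.12), with a pseudocount in place of the floor (-1.69, 0.074) and without any 1 of the 4 arrays compared (-2.80 to -2.34 in the 12 fits that each left out 1 array, adjusted p up to 0.21). At 48 h the change of -1.42 ± 0.43 did not pass (adjusted p = 0.40), and without the 3 arrays that stand apart it was -0.86 (0.18). No member probe passed at 48 h, where 0.148% of all probes were called in either direction, and 2 of 10 had an unadjusted p under 0.05, against 8.69% of all probes. The medium effect of Perm1 at 48 h minus that at 24 h was 1.13 ± 0.60 (adjusted p = 1.00), so a change in the effect between the times was not shown.

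Against time zero, Perm1 fell in conditioned medium at 24 h by -4.21 ± 0.37 (adjusted p = 8.3e-06) to a mean 5.84% of that at time zero. In that comparison 2 of 10 member probes were called lower, Perm1 and Klf15, against 0.599% of all probes. In unconditioned medium at 24 h the change was -1.67 ± 0.37 (adjusted p = 0.077) at a mean 33.9% of time zero, and no member probe was called, against 0.815% of all probes in either direction, with 1 of 10 at an unadjusted p under 0.05 (9.88% of all probes). The Perm1 change there passed without the 3 arrays that stand apart (-1.48, adjusted p = 0.0088), without time zero replicate 5 alone (-1.86, 0.036), with array weights (-1.47, 0.012) and with quantile normalization (-1.71, 0.049). At 48 h Perm1 fell in conditioned medium by -3.71 ± 0.37 (adjusted p = 1.4e-05; 1 of 10 member probes called lower, against 1.07% of all probes). It also fell in unconditioned medium at 48 h, by -2.32 ± 0.37 (adjusted p = 0.0019), where 2 of 10 member probes, Perm1 and Esrra, were called lower, against 0.869% of all probes. These comparisons share the 4 time zero arrays, whose Perm1 values spread most of the 5 groups (SD 267 around 696). Groups lay wholly below time zero for 5 of 10 member probes in conditioned medium at 24 h (5.97% of all probes), 1 in unconditioned medium at 24 h (3.22%), 6 in conditioned medium at 48 h (7.44%) and 5 in unconditioned medium at 48 h (6.29%). Without the 3 arrays that stand apart the 3 called changes were -4.06, -3.55 and -2.66, with adjusted p from 5.7e-06 to 4.9e-04.

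**Figure D1:**
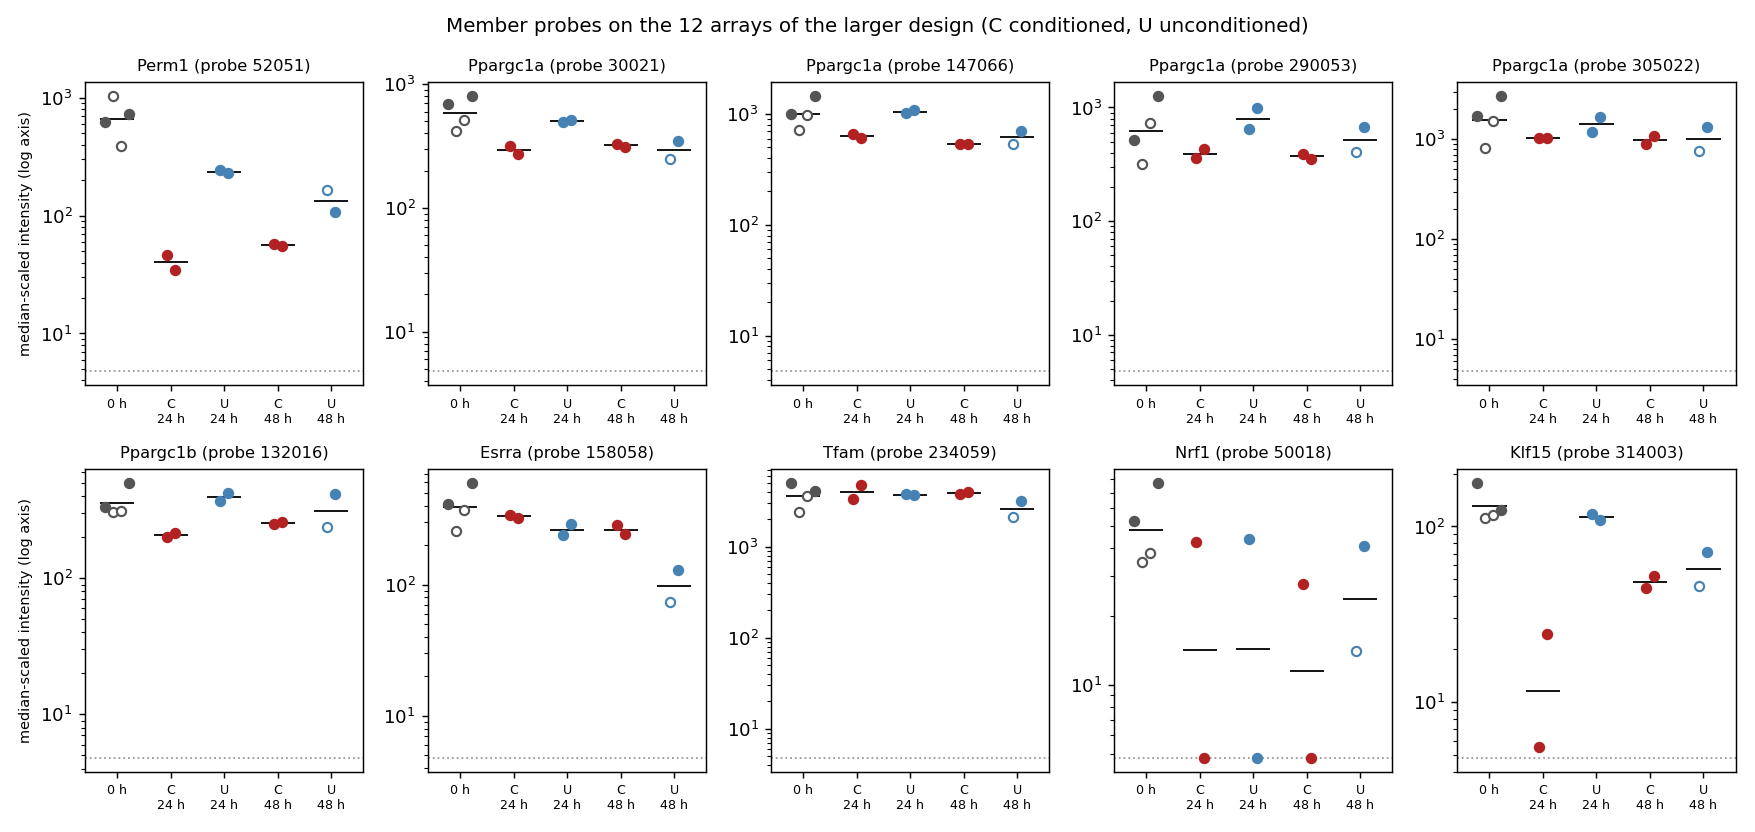
Median-scaled intensity (log axis) of the 10 member probes on the 12 arrays of the larger design, in 5 groups (0 h, time zero; C, conditioned; U, unconditioned). Points are arrays, open where the array stands apart, bars are geometric means and the dotted line is the floor of 4.78; Perm1 lies at 34.7 to 56.9 in conditioned medium, below the unconditioned and time zero arrays.

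At 24 h Klf15 lay within or just under the time zero range in unconditioned medium, and well below it in conditioned medium. Probe 314003 of the larger design gave 177, 111, 117 and 124 in time zero replicates 3 to 6, 5.5 and 24.2 in conditioned and 117 and 108 in unconditioned medium at 24 h, and 44.7 and 52.3 in conditioned and 45.6 and 71.9 in unconditioned medium at 48 h. Time zero and unconditioned 24 h overlapped, as did the media at 48 h, and both conditioned arrays at 24 h lay below all others. At 24 h Klf15 fell in conditioned relative to unconditioned medium by -3.30 ± 0.62 (adjusted p = 0.026), with a mean 13.2% of that in unconditioned medium. The size rests on conditioned 24 h replicate 2, which was just above the floor. Without it the change was -2.26 (adjusted p = 0.45), without conditioned 24 h replicate 3 it was -4.36, and with a pseudocount it was -1.38 (0.074). The call was also lost with no filter on level (-3.29, adjusted p = 0.19), without either unconditioned 24 h array (-3.18 and -3.39, 0.16 and 0.24) and without time zero replicate 3 or 5 (-3.30 for each, 0.054 and 0.051).

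At 48 h the Klf15 change between media was -0.42 ± 0.62 (adjusted p = 0.96), and over both times it was -1.85 ± 0.44 (adjusted p = 0.069). The value over both times passed without the 3 arrays that stand apart (-1.91, adjusted p = 0.030), without time zero replicate 4 (-1.85, 0.031) and without conditioned 24 h replicate 3 (-2.38, 0.015). It was smaller and did not pass without conditioned 24 h replicate 2 (-1.33, adjusted p = 0.36), with the floor at 0.2 of the common median (-1.38, 0.065) and with a pseudocount (-0.81, 0.11). The medium effect at 48 h minus that at 24 h was 2.86 ± 0.87, with an unadjusted p of 0.0027 and an adjusted p of 1.00. It ranged from 1.10 with a pseudocount and 1.82 without conditioned 24 h replicate 2 to 3.91 without conditioned 24 h replicate 3. In that comparison no probe of any gene passed, 2 of 10 member probes, Perm1 and Klf15, had an unadjusted p under 0.05, and so did 2.19% of all probes. Against time zero Klf15 fell in conditioned medium at 24 h by -3.68 ± 0.53 (adjusted p = 8.2e-04), with -4.74 to -2.64 in the 12 fits that each left out 1 array and adjusted p up to 0.048. In unconditioned medium at 24 h it was at -0.40 ± 0.53 (adjusted p = 0.92), and at 48 h it was at -1.59 ± 0.53 in conditioned (0.13) and -1.20 ± 0.53 in unconditioned medium (0.33). The conditioned change at 48 h passed with array weights (-1.65, adjusted p = 0.033), the higher floor (-1.57, 0.036) and a pseudocount (0.044).

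The smaller design carried a second Klf15 probe (12138) on 6 other arrays, with 1 array in each medium group and therefore no test. Whether these arrays held RNA of the same dishes is not given. Intensity was 209 and 329 at time zero, 47.0 in conditioned and 148 in unconditioned medium at 24 h, and 59.4 in conditioned and 56.2 in unconditioned medium at 48 h. The conditioned 24 h array was again the lowest, and the 48 h arrays lay close together. These 6 arrays differed in spread by medium. The interquartile ratio was 16.6 and 16.3 in conditioned medium at 24 h and 48 h, and 40.5 and 54.1 in unconditioned medium. At time zero it was 27.2 and 44.4. The part of this spread in the differences between media on the smaller design was not tested. The log2 change between media was -1.37 at 24 h, where 3.09% of the 6934 probes kept were at least 2-fold lower than the median of all probes and 1 of 3 member probes was, and 0.46 at 48 h, where 1.79% and no member probe were. Against time zero it was -2.23 in conditioned and -0.83 in unconditioned medium at 24 h, and -1.88 in conditioned and -2.30 in unconditioned medium at 48 h.

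Ppargc1a had 4 probes on the larger design, and each lay below the median of all probes in conditioned relative to unconditioned medium. None was called in the main fit of all 12 arrays, while some alternative settings called more member probes between media (counts in the last section). For probe 147066, the one with the smallest SE, intensity was 1007, 713, 975 and 1449 in time zero replicates 3 to 6, 657 and 607 in conditioned and 1011 and 1079 in unconditioned medium at 24 h, and 535 and 534 in conditioned and 540.0 and 707 in unconditioned medium at 48 h. The conditioned arrays at 24 h lay below both unconditioned arrays and below all 4 time zero arrays. Over both times the 4 changes between media ran from -0.84 to -0.33 (adjusted p from 0.43 to 0.85), with -0.55 ± 0.25 for probe 147066. At 24 h they ran from -1.04 to -0.46 (adjusted p from 0.94 to 1.00), and in all 4 the conditioned arrays lay below the unconditioned ones. Such a separation of 2 arrays from 2 was found for 7 of 10 member probes at 24 h, against 22.4% of all probes, and 1 of 10, Esrra, was separated upwards, against 24.1%. At 48 h 3 of 10 were separated downwards, against 11.6% of all probes, and 2 of 10 upwards, against 29.9%. The 7 at 24 h include all 4 Ppargc1a probes, which read 1 gene on the same arrays (Pearson's r of 0.71 to 0.93). The 3 at 48 h were Perm1 and the Ppargc1a probes 147066 and 290053. At 48 h the 4 changes ran from -0.67 to -0.04 (adjusted p from 0.84 to 0.99).

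Against time zero the Ppargc1a probes were at -1.17 to -0.77 in conditioned (adjusted p from 0.11 to 0.53) and -0.40 to 0.16 in unconditioned medium at 24 h (0.83 to 0.97). At 48 h they were at -1.07 to -0.82 in conditioned (0.095 to 0.40) and -1.01 to -0.27 in unconditioned medium (0.11 to 0.89). Time zero replicate 4 held the lowest value on each of the 4 probes. Without that array probe 30021 fell in conditioned medium at 24 h (-1.25, adjusted p = 0.027) and 48 h (-1.11, 0.034) and in unconditioned medium at 48 h (-1.08, 0.022), and probe 147066 fell in conditioned medium at 48 h (-1.15, 0.024). Without the 3 arrays that stand apart, 3 of the 4 probes were at -1.31 to -0.92 in conditioned medium at 24 h, and all 4 were at -1.17 to -1.09 at 48 h. With all arrays kept, probe 147066 passed in conditioned medium at 24 h with quantile normalization (-0.96, adjusted p = 0.0060) and array weights (-0.84, 0.0078). At 48 h it also passed with both (-1.17, 8.8e-04 and -1.06, 4.9e-04). Probes 30021 and 305022 passed at both times with both settings as well. Over all probes the calls rose too, at 24 h from 751 to 1997 with quantile normalization and 3114 with array weights. At 48 h they rose from 1532 to 3085 and 4899. On the smaller design probe 12543 gave 1527 and 1236 at time zero, 521 in conditioned and 1210.1 in unconditioned medium at 24 h, and 499.8 in conditioned and 838 in unconditioned medium at 48 h. Both conditioned arrays were below both unconditioned ones, with changes between media of -0.93 at 24 h and -0.37 at 48 h, and of -1.15 and -1.20 in conditioned medium against time zero. Together with Klf15 this made 2 of 3 member probes at least 2-fold lower than the median of all probes in conditioned medium against time zero, against 4.23% of all probes at 24 h and 4.12% at 48 h. In unconditioned medium against time zero no member probe reached that size at 24 h (1.9% of all probes) and Klf15 alone did at 48 h (6.17%).

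**Figure D2:**
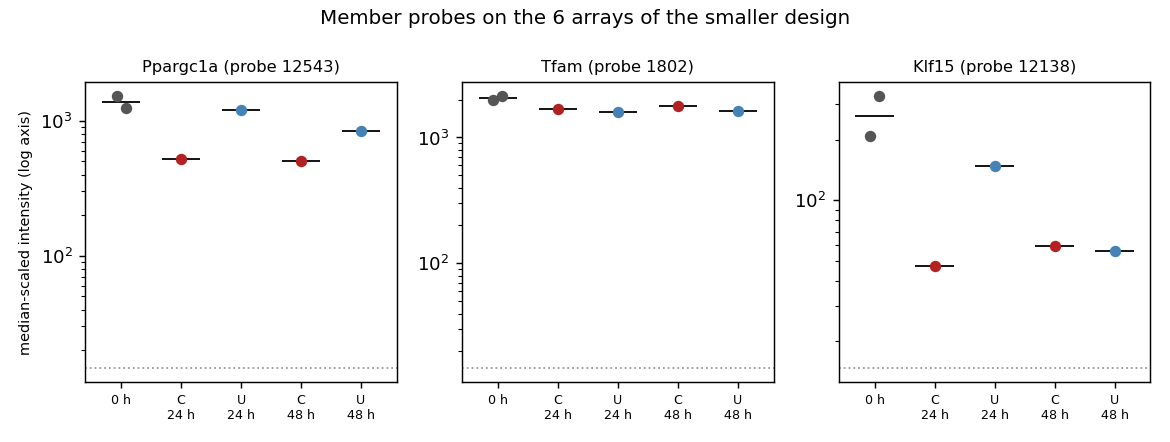
Median-scaled intensity (log axis) of the 3 member probes on the 6 arrays of the smaller design, in 5 groups (0 h, time zero; C, conditioned; U, unconditioned). Points are arrays, bars are geometric means and the dotted line is the floor of 14.7; Klf15 was 47.0 in conditioned against 148 in unconditioned medium at 24 h.

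Ppargc1b, the second coactivator of the family, was measured by probe 132016. Intensity was 336, 309.6, 310.0 and 503 in time zero replicates 3 to 6, 202 and 216 in conditioned and 371 and 427 in unconditioned medium at 24 h, and 249 and 258 in conditioned and 237 and 418 in unconditioned medium at 48 h. The 4 conditioned arrays lay below all time zero arrays, and at 24 h below both unconditioned arrays. The change between media was -0.94 ± 0.37 at 24 h (adjusted p = 0.73) and -0.49 ± 0.37 at 48 h (0.88), and with the times together -0.70 ± 0.26 (0.37). Without the 3 arrays that stand apart it passed over both times (-0.80, adjusted p = 0.017) and at 24 h (-0.93, 0.045). Against time zero it was -0.95 ± 0.32 in conditioned (0.24) and -0.03 ± 0.32 in unconditioned medium at 24 h (0.90), and -0.66 ± 0.32 in conditioned (0.45) and -0.19 ± 0.32 in unconditioned medium at 48 h (0.90). The conditioned change at 24 h passed with array weights (-0.88, adjusted p = 0.0097), quantile normalization (-0.93, 0.023) and without the 3 arrays (-0.96, 0.017). The change between media at 24 h passed with array weights (-0.94, 0.029).

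Esrra, which encodes estrogen-related receptor α, a nuclear receptor through which PGC-1 coactivators act, lay higher in conditioned than in unconditioned medium, without passing the threshold between media. Probe 158058 gave 409, 256, 368 and 596 in time zero replicates 3 to 6, 339 and 324 in conditioned and 237 and 289 in unconditioned medium at 24 h, and 283 and 243 in conditioned and 73.6 and 130.3 in unconditioned medium at 48 h. The 2 unconditioned arrays at 48 h lay below all others, and conditioned arrays lay above unconditioned ones at each time. Esrra fell in unconditioned medium at 48 h against time zero by -2.00 ± 0.35 (adjusted p = 0.0035), to a mean of 102 ± 40.1 (SD, n = 2), against 407 ± 142 at time zero (SD, n = 4). In conditioned medium at 48 h it was at -0.73 ± 0.35 (adjusted p = 0.42) and a mean 64.6% of time zero, and it passed there with array weights (-0.77, 0.018) and without the 3 arrays that stand apart (-0.88, 0.018). At 24 h it was at -0.41 ± 0.35 in conditioned (0.82) and -0.76 ± 0.35 in unconditioned medium (0.65). One of the 2 unconditioned 48 h arrays, replicate 2, stands apart, and without it the change against time zero was -1.80 (adjusted p = 0.059), while without all 3 arrays that stand apart it was -1.92 (0.0021). In both of these fits the lone unconditioned 48 h array was assumed to vary like the other groups. The change between media was 0.33 ± 0.40 at 24 h (adjusted p = 1.00) and 1.24 ± 0.40 at 48 h (0.28), and with the times together 0.80 ± 0.29 (0.21). Over both times it passed with array weights (0.80, adjusted p = 0.024) and without the 3 arrays that stand apart (0.69, 0.044).

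Tfam, which coats and transcribes mitochondrial DNA, passed in none of the 8 comparisons (adjusted p from 0.63 to 1.00). Its probe 234059 gave 2383 to 5040.5 at time zero, 3373 and 4769 in conditioned and 3816 and 3662 in unconditioned medium at 24 h, and 3772 and 4038 in conditioned and 2143 and 3193 in unconditioned medium at 48 h. The change between media was 0.25 ± 0.27 over both times, and against time zero the 4 changes ran from -0.49 to -0.04. On the smaller design probe 1802 gave 1997 and 2136 at time zero, 1668 in conditioned and 1588 in unconditioned medium at 24 h, and 1788 in conditioned and 1611 in unconditioned medium at 48 h. The arrays of both media lay below time zero. Nrf1, the nuclear respiratory factor 1 gene, could not be measured well by probe 50018. Time zero values were 34.6 to 77.2, and the other groups held 42.4 and below the floor in conditioned medium at 24 h, 43.6 and below the floor in unconditioned medium at 24 h, 27.8 and below the floor in conditioned medium at 48 h, and 14 and 40.6 in unconditioned medium at 48 h. The SE of its changes was 0.91 to 1.81, and no comparison passed (adjusted p from 0.34 to 1.00).

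**Figure D3:**
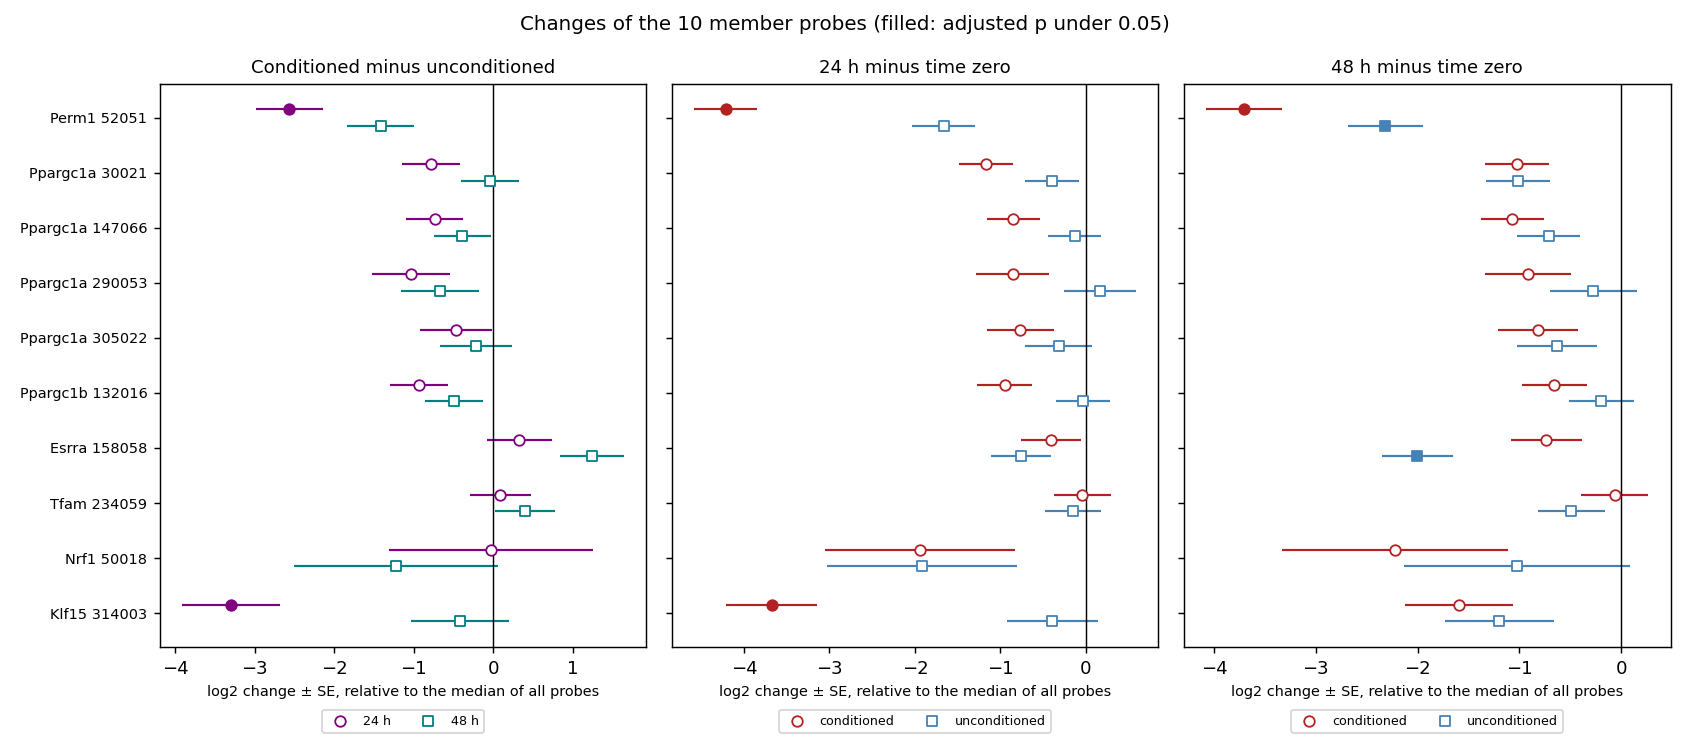
Log2 changes ± SE of the 10 member probes, less the median over all probes, for conditioned minus unconditioned medium at each time and for each medium against time zero at 24 h and 48 h. Filled symbols passed an adjusted p of 0.05; they are Perm1 and Klf15 between media at 24 h and against time zero in conditioned medium at 24 h, Perm1 in both media at 48 h, and Esrra in unconditioned medium at 48 h.

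A list held 39 targets of the estrogen-related receptors and PGC-1, among them genes of fatty acid oxidation, the citric acid cycle and the respiratory chain. Of the 33 genes tested, 0 passed in any of the 8 comparisons by limma's test, with 0 to 2 at an unadjusted p under 0.05. Their median change between media was -0.26 at 24 h, 0.21 at 48 h and -0.02 with the times together. From time zero it was -0.09 in conditioned and 0.08 in unconditioned medium at 24 h, and -0.04 in conditioned and -0.29 in unconditioned medium at 48 h, on a scale where the median of all probes is 0. Vegfa, an angiogenic growth factor, had the smallest p between media over both times (0.41 ± 0.27, adjusted p = 0.54). With quantile normalization 5 of these genes passed in conditioned medium at 24 h, 3 in conditioned and 5 in unconditioned medium at 48 h against time zero, and 1 between media over both times. That setting raised the calls over all probes as well. In the same order they went from 751 to 1997, from 1532 to 3085, from 686 to 2343 and from 218 to 921. Of 15 genes tested from a list of 18 for mitochondrial DNA expression and protein import, 0 passed in any comparison, with 0 to 5 at an unadjusted p under 0.05. Their median between media was 0.28 over both times, and 1 of 15 lay below 0. The smallest p belonged to Tomm70, a receptor of the outer mitochondrial membrane (0.87 ± 0.31, adjusted p = 0.22). Over all probes 8.69% had an unadjusted p under 0.05 between media at 48 h, where 1 of 33 and 1 of 15 did. In unconditioned medium at 24 h against time zero 9.88% did, with 2 of 33 and 0 of 15. The 5 of 15 were in conditioned medium at 48 h against time zero, for which the share over all probes is not given here.

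Single genes passed among the regulators and partners of PGC-1 (26 tested of a list of 32). Rxrg, the retinoid X receptor γ, had 133 to 141 in conditioned and 393 to 516 in unconditioned medium at 24 h, and 124 to 151 in conditioned and 193 to 416 in unconditioned medium at 48 h. It fell in conditioned relative to unconditioned medium over both times by -1.47 ± 0.31 (adjusted p = 0.043). Rxrg was the 1 of 26 genes called there, where 0.291% of all probes were called lower. That call was lost with no filter on level (adjusted p = 0.17), with a pseudocount (0.065) and without any 1 of the 8 arrays compared other than unconditioned 48 h replicate 2 (0.089 to 0.22). Pparg, a nuclear receptor that PGC-1 coactivators bind, had 69.6 to 167 at time zero, 569.8 to 577 in conditioned and 237 to 375 in unconditioned medium at 24 h, and 580.5 to 797 in conditioned and 189 to 392 in unconditioned medium at 48 h. It rose against time zero in conditioned medium at 24 h (2.12 ± 0.40, adjusted p = 0.0025) and 48 h (2.39 ± 0.40, 6.3e-04), with 1.18 ± 0.40 at 24 h (0.16) and 1.22 ± 0.40 at 48 h (0.13) in unconditioned medium. The first of these calls was lost without either conditioned 24 h array (adjusted p = 0.058 and 0.066). Between media over both times Pparg was at 1.05 ± 0.33 (adjusted p = 0.14), and without time zero replicate 4 it passed (1.05, 0.034). Nr0b2, a corepressor of nuclear receptors, fell in conditioned medium at 48 h against time zero by -1.52 ± 0.35 (0.026), with -1.28 ± 0.35 in unconditioned medium (0.061). This call was lost with no filter on level (-1.40, adjusted p = 0.072), without either conditioned 48 h array (0.25 for each) and without time zero replicate 3 (0.058).

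Of 14 genes tested from a list of 18 for the glucocorticoid response and targets of KLF15, 8 lay below the median of all probes between media over both times (median -0.09). Against time zero 10 of 14 did in conditioned medium at 24 h (median -0.22) and 8 of 14 at 48 h (-0.02). Cebpd was the 1 of 14 called between media over both times, where 0.629% of all probes were called higher. This stress- and glucocorticoid-responsive transcription factor had 1025 to 1149 in conditioned and 306 to 332 in unconditioned medium at 24 h, and 836 to 881 in conditioned and 228 to 413 in unconditioned medium at 48 h, so the media did not overlap. It rose by 1.54 ± 0.27 in conditioned medium (adjusted p = 0.0043), where Klf15 was at -1.85. Against time zero it rose in conditioned medium at 24 h (1.41 ± 0.33, adjusted p = 0.010) and 48 h (1.09 ± 0.33, 0.028), with -0.36 ± 0.33 at 24 h (0.89) and -0.24 ± 0.33 at 48 h (0.87) in unconditioned medium. The 24 h call was lost without either conditioned 24 h array (adjusted p = 0.14 and 0.23) and the 48 h call with no filter on level (0.060) and without any 1 of the 4 conditioned arrays or time zero replicate 5 (0.051 to 0.28). Fkbp5, a glucocorticoid-induced chaperone partner of the glucocorticoid receptor, rose in conditioned medium at 24 h against time zero (1.26 ± 0.37, adjusted p = 0.038), with 0.84 ± 0.37 in unconditioned medium (0.29). That call was lost with no filter on level (0.12) and without any 1 of the 4 conditioned arrays, either unconditioned 24 h array or time zero replicate 5 (0.063 to 0.44). The metabolic targets Slc2a4, the insulin-regulated glucose transporter (-0.57 ± 0.31, adjusted p = 0.63), and Bcat2, a branched-chain amino acid transaminase (0.09 ± 0.28, 0.88), did not pass between media over both times.

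**Figure D4:**
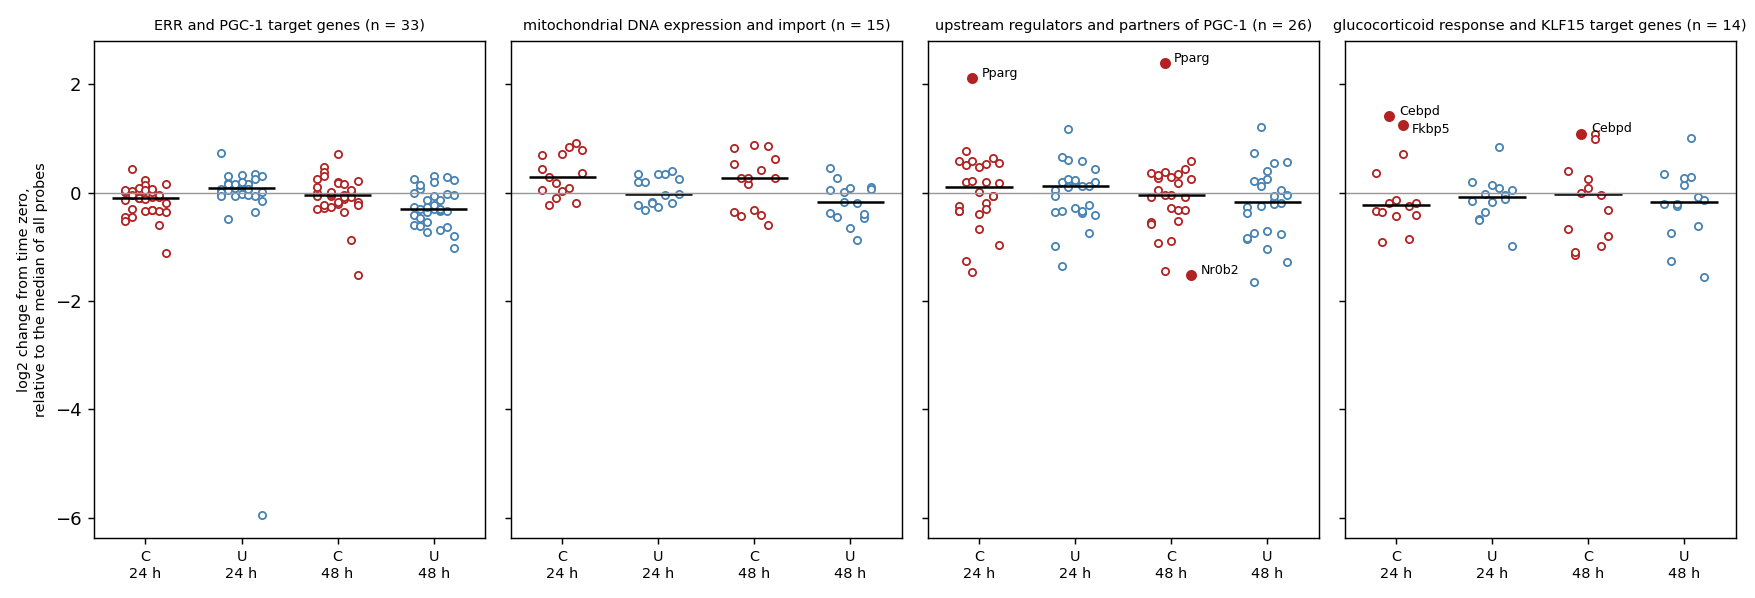
Log2 change from time zero, relative to the median of all probes, of the tested genes of 4 lists in conditioned (C) and unconditioned (U) medium at 24 h and 48 h. Points are genes, filled and named where the adjusted p was under 0.05, and bars are list medians; the gene near -6 in unconditioned medium at 24 h is Cox8b (-5.95 ± 1.56, adjusted p = 0.12).

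Cardiomyocyte markers lay lower beside Perm1 and Klf15 at 24 h. Of 11 markers, 11 lay below the median of all probes in conditioned relative to unconditioned medium at 24 h (median -0.59, range -1.01 to -0.29). None was called, and 2 had an unadjusted p under 0.05, for which the share over all probes is not given here. At 48 h 6 of 11 lay below the median of all probes (median -0.04). The oxygen-binding protein myoglobin, Mb, was the 1 of 11 called over both times, where 0.291% of all probes were called lower. Its change was -1.26 ± 0.26 in conditioned relative to unconditioned medium (adjusted p = 0.040). This call was lost with no filter on level (0.12) and without any 1 of the 4 conditioned arrays, either unconditioned 24 h array, unconditioned 48 h replicate 3 or time zero replicate 5 (0.056 to 0.23). Myh2, a fast skeletal myosin heavy chain and the 1 skeletal marker past the filter, fell by -3.93 ± 0.32 between media (adjusted p = 4.1e-06), and in unconditioned medium at 48 h it rose against time zero by 2.26 ± 0.39 (0.0029; 2.10, 0.061 without unconditioned 48 h replicate 3), where Perm1 fell. Of 7 leukocyte markers tested, Cd74, the invariant chain of MHC class II, was the 1 called between media over both times (-3.79 ± 0.54, adjusted p = 0.0014), against 0.291% of all probes called lower. Its conditioned arrays were below the floor but for 1 at 6.54, so the floor sets that size. The call was lost with the floor at 0.2 of the common median (-1.88, 0.072) and with a pseudocount (-1.28, 0.12). Against time zero, where Perm1 fell most, the creatine kinase gene Ckm fell in conditioned medium at 24 h (-1.70 ± 0.30, adjusted p = 0.0078) and 48 h (-2.03 ± 0.30, 8.1e-04) and in unconditioned medium at 48 h (-1.52 ± 0.30, 0.0091). Mb fell in conditioned medium at 24 h (-1.44 ± 0.32, adjusted p = 0.040) and 48 h (-2.51 ± 0.32, 1.9e-04). These were the cardiomyocyte markers called, 2 of 11 in conditioned medium at each time and 1 of 11 in unconditioned medium at 48 h. Of all probes 0.599%, 1.07% and 0.869% were called lower there. The median of the 11 was -0.23 in conditioned medium at 24 h and -0.11 at 48 h, with 10 and 7 of 11 below the median of all probes. In unconditioned medium it was 0.26 at 24 h (3 of 11 below) and -0.18 at 48 h (8 of 11 below). The 24 h call of Ckm was lost without either conditioned 24 h array (0.18 and 0.15), and its unconditioned 48 h call without unconditioned 48 h replicate 2 (0.088). The 24 h call of Mb was lost with no filter (0.088) and without any 1 of the 4 conditioned arrays, either unconditioned 24 h array or time zero replicate 3 or 5 (0.060 to 0.42). The part of these shifts in the changes of Perm1 and Klf15 was not tested.

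The genes most like Perm1 over the 12 arrays of the larger design, by Pearson's r of log2 values among 9952 other genes, were Lrrc27 (0.94), Cd74 (0.94), Pcp4l1 (0.92), Abcc8 (0.92) and Tmem86a (0.92). Lrrc27, a leucine-rich repeat protein, had 128 to 247 at time zero, 71.9 to 80.8 in conditioned and 142 to 157 in unconditioned medium at 24 h, and 70.8 to 75.8 in conditioned and 125 to 132 in unconditioned medium at 48 h. As for Perm1, both conditioned groups lay lowest. The genes most like Klf15 were Nsg2 (0.93), Fn3k (0.91), Rab3a (0.87), Klhl41 (0.86) and Abra (0.84). Fn3k, fructosamine 3 kinase, had 255 to 723 at time zero, 38.8 to 56.7 in conditioned and 264 to 295 in unconditioned medium at 24 h, and 106 to 116 in conditioned and 99.7 to 157 in unconditioned medium at 48 h. As for Klf15, the conditioned 24 h arrays were lowest and the media overlapped at 48 h. The arrays fall into 5 groups and share their scaling, so these correlations are descriptions and carry no p.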

How the data were processed

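Per the labels, biotin-labelled RNA was read on CodeLink arrays with 1 colour, in 2 designs. The deposited values are linear intensity, and how the authors corrected background or normalized them is not given in the sources used here. Array medians were 70.3 to 144 on the larger and 214 to 416 on the smaller design, and the number of arrays limits the precision. Probes were named from GEO platform annotation, whose probe sequences are not analysed here.

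The designs were kept apart. Each array was brought to a common median, values under 0.05 of that median were raised to it, and log2 was taken. The filter removed probes up to the 30th percentile of mean level, leaving 23694 probes of 9953 genes on the larger design. One limma 3.58.1 model (R 4.3.3; lmFit, then eBayes with trend) covered the 5 groups, on 7 residual plus 10.4 prior degrees of freedom. Genes of lists and likeness were represented by their probe with the highest mean, and in the 4 pathway lists each gene past the threshold was named, or the smallest p between media over both times where none passed. Of the marker lists, only Ckm, Mb, Myh2 and Cd74 are given as changes, and the others past the threshold are not described; these 4, Slc2a4, Bcat2 and Cox8b were picked after their values were seen. The members and lists were chosen with earlier results of these data known. Alternatives were quantile normalization, no filter, a higher floor (0.2 of the common median), a pseudocount (0.5 of it) in place of the floor, array weights, leaving out the 3 arrays that stand apart, and each array left out in turn. Averaging the Ppargc1a probes was added after seeing the data. The fit was also run on simulated data with independent noise for each probe. Those data had no arrays that stand apart and no floor, so they check the code and not the calls given here. Figures were drawn with matplotlib 3.10.9.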

Additional observations from a re-analysis of the deposited data

Results flagged for a closer look

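On probe 132016 of Ppargc1b, time zero replicate 6 (503) stood far from replicates 3 to 5 (309.6 to 336), with a gap to the nearest replicate of 0.861 of the whole range. It was 1 of 10 member probes examined in this group of 4 arrays, and chance marks about 1 in 20 such groups. All 4 conditioned arrays lay below the other 3 time zero arrays as well.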

How the results depend on the processing

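No paired analysis was possible because the replicate numbers come from accession order and carry no pairing. No change of a called member probe turned its direction under any alternative run. The call of Perm1 over both times, and its calls against time zero in conditioned medium at 24 h and 48 h and in unconditioned medium at 48 h, were kept under every alternative run. Counts of member probes called were as follows. Against time zero, conditioned 24 h (2) gave 6 with array weights, quantile normalization or without the 3 arrays that stand apart. Conditioned 48 h (1) gave 7, 4 and 6 under the same 3 settings and 2 with the floor of 0.2 or the pseudocount. Unconditioned 24 h (0) gave 1 under the same 3 settings, and unconditioned 48 h (2) gave 4 with quantile normalization. Between media, both times (1) gave 2 with array weights or quantile normalization and 5 without the 3 arrays, and 24 h (2) gave 0 with no filter or the pseudocount and 4 without the 3 arrays. With 1 time zero array left out the counts against time zero were 2 to 3 for conditioned 24 h, 1 to 3 for conditioned 48 h and 2 to 3 for unconditioned 48 h. Each was 3 without time zero replicate 4. For unconditioned 24 h they were 0 to 1, with 0 without that replicate. Between media they were 1 to 2 over both times and 1 to 2 at 24 h. Leaving out a conditioned or unconditioned array left 1 array in its group, and some calls at 24 h between media were then lost. Over all probes, both times between media gave 218 calls, against 1075 with array weights, 921 with quantile normalization, 83 with no filter and 1849 without the 3 arrays. Calls over all probes against time zero moved as well. Conditioned 24 h gave 751, against 3114 with array weights and 1997 with quantile normalization. In the same order conditioned 48 h gave 1532, 4899 and 3085. Unconditioned 24 h gave 193, 371 and 543, and unconditioned 48 h gave 686, 392 and 2343. Between media at 24 h there were 58, 828 and 301. The count also rose in each of these comparisons without the 3 arrays. The mean of the 4 Ppargc1a probes was -0.52 ± 0.28 between media over both times when averaged before the fit (adjusted p = 0.63). The causes were not tested, and settings that leave out arrays can leave a group with 1 array. The floor and the filter limit dim probes (Klf15 in conditioned medium at 24 h, Nrf1), and the absence of any stated background correction leaves their scale uncertain.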
